A study of Mus musculus with 38 samples.

Results

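Pre-plasmablasts are activated B cells that have switched on the gene for Blimp1 but do not yet carry CD138, the surface protein of plasmablasts and plasma cells. The results describe what mouse pre-plasmablasts expressed when Blimp1 was deleted. They rest on 4 RNA-seq libraries, chosen by genotype and sort gate from 38 samples: 2 of Blimp1-deficient pre-plasmablasts and 2 of control pre-plasmablasts. The control cells had the genotype Blimp1(GFP/+) Cd23(Cre/+) and were sorted as CD138– GFP+. The deficient cells had the genotype Blimp1(GFP/fl) Cd23(Cre/+) and were sorted as CD138– GFP+ CD22hi. Both kinds therefore carried the GFP reporter allele, which does not make working Blimp1, and the Cre recombinase driven from Cd23, a gene of mature B cells. The controls thus kept 1 intact Blimp1 allele and are not wild type. The extra gate on CD22 went with the genotype, so that the effect of the deletion and of the gate cannot be told apart. All cells had the C57BL/6 background, had been stimulated with LPS for 4 days, and were read as strand-specific libraries of poly(A) RNA. The labels give neither the age of the mice nor whether mice were pooled, and they do not say whether libraries of the same kind came from separate mice. P-values then measure only the spread between these libraries, which may be technical. Activated B cells (CD138– GFP–, 2 libraries) and plasmablasts (CD138+ GFP+, 2 libraries), both Blimp1(GFP/+) Cd23(Cre/+), entered the same fit and are given as reference levels. Another 4 libraries of Blimp1(GFP/+) pre-plasmablasts, sorted as CD138– GFP+ after LPS with DMSO or GSK343, are used at the end. GSK343 blocks EZH2, the enzyme that methylates histone H3 at lysine 27.

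Blimp1, encoded by Prdm1, is a DNA-binding zinc finger protein that both represses and activates genes. It is known for shutting down the programme of the B cell, with its antigen receptor signalling, antigen presentation and B cell transcription factors, and for raising the secretory machinery that antibody production needs. Irf4 and Xbp1 are its partners in that switch. Irf4 is a transcription factor needed to form plasma cells, and Xbp1 drives the unfolded protein response, the programme that enlarges the endoplasmic reticulum (ER).

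Values are RPKM, reads scaled to the length of the gene and the size of the library. Changes are differences of the mean log2(RPKM + 1) with their standard error (SE), which understate the change of genes near 0. In each pair of values the first library belongs to the first library number series and the second to the second. Adjusted p-values are from limma with Benjamini-Hochberg adjustment over all 10473 genes tested. In bulk RNA, fewer cells of a kind and less RNA per cell cannot be told apart.

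The targeted gene was measured first. Prdm1 stood at 429 and 327 RPKM in control and 199 and 171 RPKM in deficient pre-plasmablasts, with 7.45 and 10.7 RPKM in activated B cells. The groups did not overlap, and the change was -1.02 ± 0.21 on the log2 scale (adjusted p = 0.0102). The value covers the whole gene, including what is transcribed from the GFP allele and from parts of the floxed allele outside the deletion, so it checks the genotype only in part. The call of Prdm1 ended in the fits without the first control library (-0.82) or the second deficient one (-0.91). With the library number series fitted as a block Prdm1 was called (adjusted p = 0.00155). Cd22, the gene of the extra gate and a receptor that dampens B cell receptor signals, stood at 28.5 and 38.3 RPKM in control and 345 and 309 RPKM in deficient cells. Sdc1, which encodes CD138, was low in both by the gate, at 2.19 and 2.12 RPKM in control and 0.511 and 0.954 RPKM in deficient cells, against 32.7 and 30.5 RPKM in plasmablasts. Defining B cell genes were abundant in every library: the summed level of 9 of them, without Cd22, was 2809 and 3008 RPKM in control and 5152 and 5533 RPKM in deficient cells.

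Without Blimp1, 2553 genes were higher and 1681 lower than in control pre-plasmablasts, which is 24.4% and 16.1% of the 10473 genes tested. Of these, 732 genes (6.99%) were higher and 594 (5.67%) lower by 2-fold or more on the log2(RPKM + 1) scale. All 4234 called genes changed the same way in both library series, but the calls were made on the same libraries, so this is no separate support. The series numbers paired the libraries, and with the series as a block 4226 genes (40.4%) were higher and 2603 (24.9%) lower. The median change over all genes was 0.12, and scaling the libraries by the median of ratios shifted it by -0.11. After that scaling 1877 genes (17.9%) were higher and 2036 (19.4%) lower, so that 48.0% of calls were higher in place of 60.3%. Against activated B cells the deficient cells had 1089 genes (10.4%) higher and 796 (7.60%) lower.

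**Figure D1:**
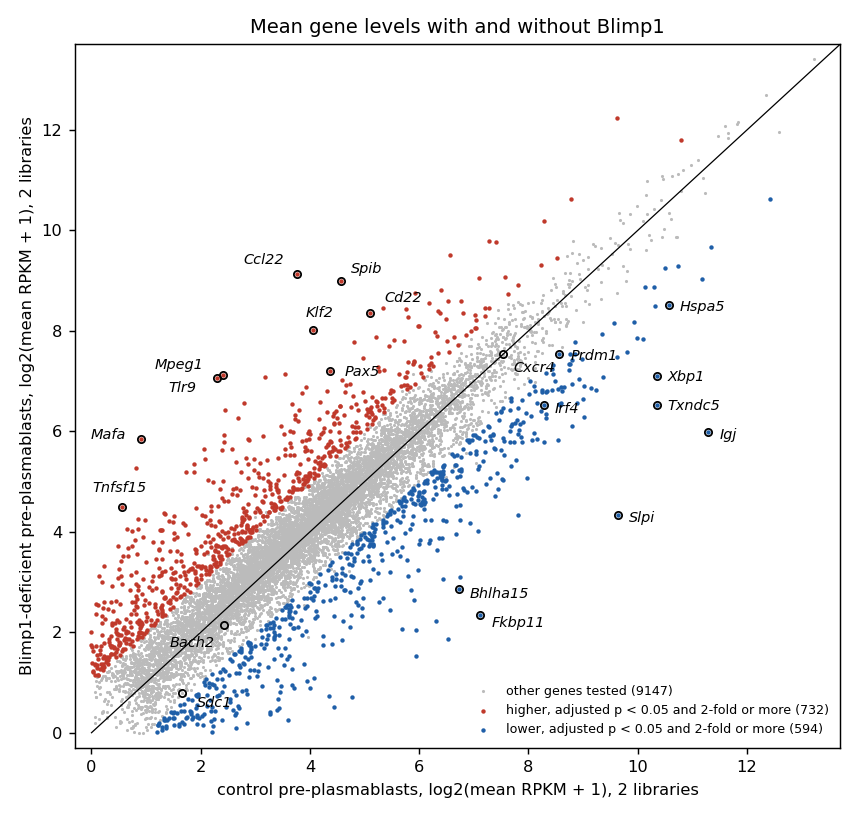
Mean level of each gene tested in control (horizontal) and Blimp1-deficient (vertical) pre-plasmablasts, as log2 of the mean RPKM of 2 libraries plus 1. The 594 blue genes below the diagonal include Igj, Slpi, Txndc5, Xbp1 and Bhlha15, and the 732 red genes above it include Ccl22, Spib, Tlr9, Mafa and Cd22, the gene of the sort gate, while Cxcr4 lies on it.

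The factors that build the plasma cell programme were low in the deficient cells, but several stayed above the level of activated B cells. Xbp1 was at 1156 and 1443 RPKM in control and 113 and 161 RPKM in deficient cells, a change of -3.25 ± 0.31 (adjusted p = 0.00043). Irf4 was at 330.1 and 288 RPKM in control and 91.3 and 89.6 RPKM in deficient cells, a change of -1.76 ± 0.14 (adjusted p = 0.000218). Both deficient libraries lay far under both controls. Activated B cells held 26.4 and 33.2 RPKM of Irf4, and the deficient cells exceeded them by 1.58 ± 0.14 (adjusted p = 0.00109). Bhlha15, which encodes the secretory cell factor Mist1, was at 99.6 and 110.5 RPKM in control and 5.75 and 6.84 RPKM in deficient cells (-3.86 ± 0.28, adjusted p = 0.000146), and activated B cells had 0.699 and 2.23 RPKM. Ell2, an elongation factor that favours the secreted form of antibody heavy chain RNA, was at 177 and 226 RPKM in control and 47.4 and 61.4 RPKM in deficient cells (-1.87 ± 0.19, adjusted p = 0.000577). Eaf2, a partner of ELL proteins, went from 58.2 and 50.98 to 8.61 and 6.7 RPKM (-2.69 ± 0.21, adjusted p = 0.000209). Apart from Prdm1, which the genotype sets, 12 of the 18 plasma cell regulators in the list were lower and 4 higher, with a median change of -1.05. With Prdm1 the shares were 68.4% lower and 21.1% higher, beside 16.1% and 24.4% of all genes, so the higher share was near that of all genes. Over all 19 with Prdm1, the higher count was 2 without the second control or the first deficient library. The list also holds Aff3, a nuclear factor related to the elongation complexes, which was higher in the deficient cells, at 2.02 and 3.31 RPKM in control and 35.7 and 35.4 RPKM in deficient cells (3.34 ± 0.22, adjusted p = 0.000113).

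Products that antibody-secreting cells release were among the largest falls. Igj, the J chain that joins IgM and IgA into polymers, was at 1621 and 3403 RPKM in control and 18.2 and 107 RPKM in deficient cells, a change of -5.69 ± 1.33 (adjusted p = 0.0155). The libraries of the second series held more Igj than those of the first in every group, and the deficient pair lay within the range of activated B cells, at 7.33 and 118 RPKM. Its call ended in the fits without the second control library (-5.15) or the first deficient one (-4.44), which had no block. With the series as a block the SE was 0.59 (adjusted p = 7.51e-05). Slpi, a secreted protease inhibitor, went from 817 and 784 to 10.8 and 27.5 RPKM (-5.45 ± 0.69, adjusted p = 0.00127). Vegfa, the vascular growth factor, went from 70.2 and 50.01 to 2.77 and 3.53 RPKM (-3.87 ± 0.23, adjusted p = 7.79e-05). Among 19 secreted effectors 10 were lower (52.6%) and 5 higher (26.3%), beside 16.1% and 24.4% of all genes. The higher share was thus near that of all genes. The largest rise among all genes at 10 RPKM or more also belongs to the list. That gene is Ccl22, a chemokine that attracts T cells, at 10.5 and 14.7 RPKM in control and 625 and 489 RPKM in deficient cells (5.36 ± 0.40, adjusted p = 0.000158). Tnf, the inflammatory cytokine, rose from 0.764 and 0.562 to 5.13 and 5.06 RPKM (1.88 ± 0.22, adjusted p = 0.000898) and stayed under activated B cells, at 22.5 and 15.02 RPKM.

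**Figure D2:**
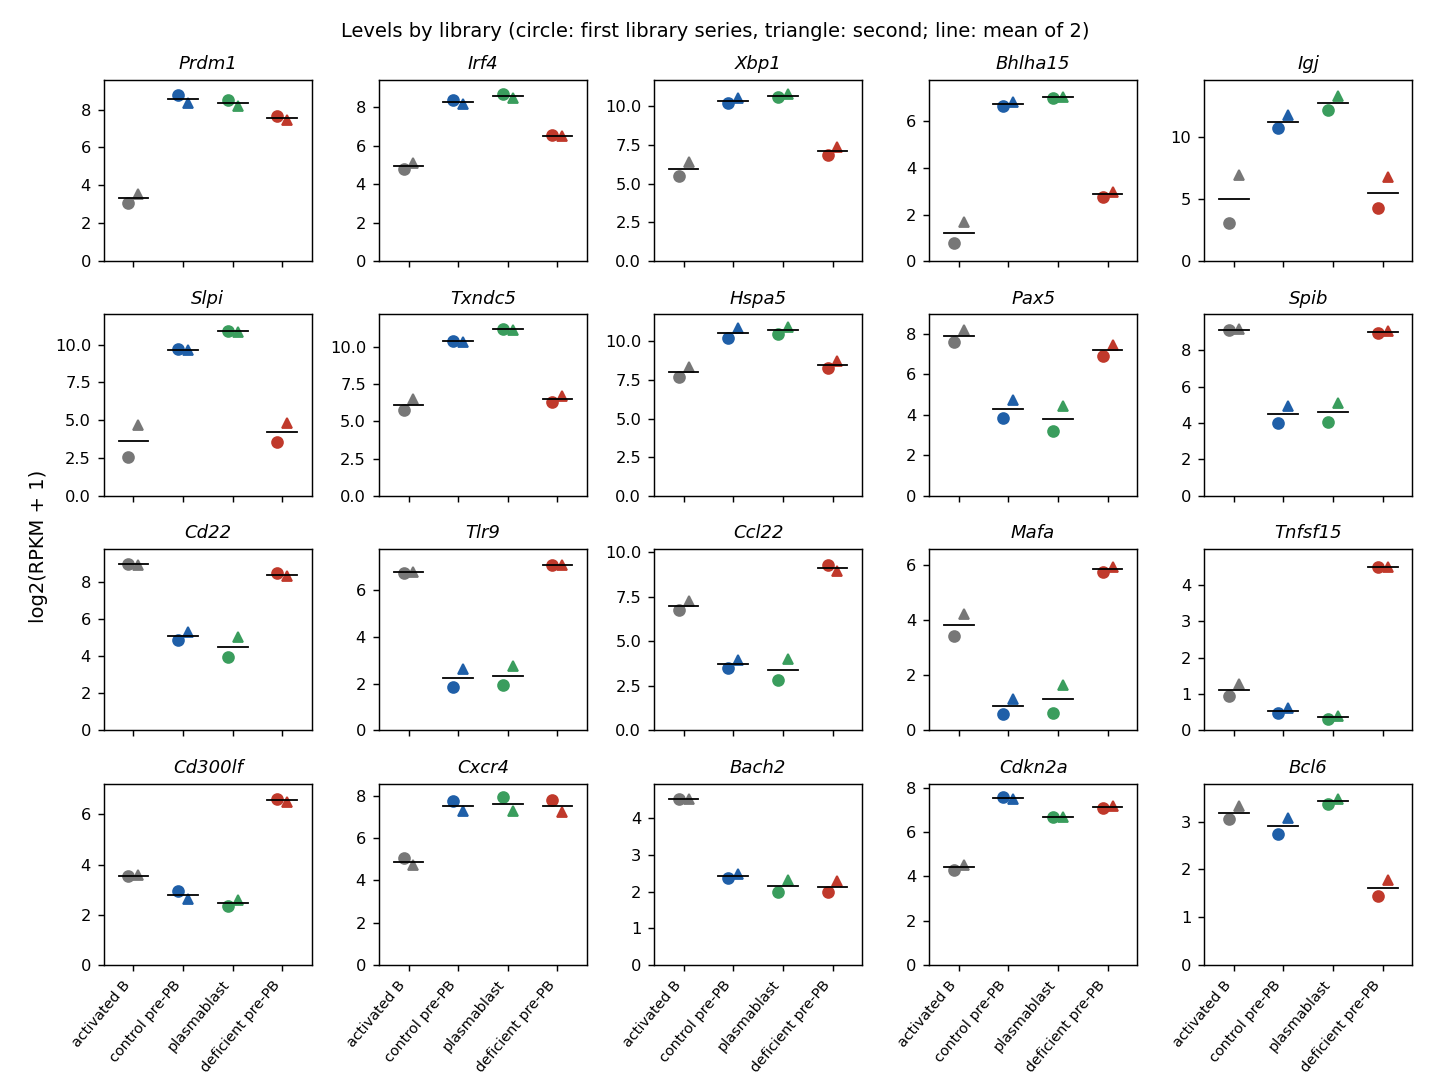
Level of 20 genes in each of the 8 libraries, as log2(RPKM + 1), with a line at the mean of the 2 libraries of a group. Deficient pre-plasmablasts (red) lie near activated B cells (grey) for Slpi and Spib, above them for Irf4, Bhlha15, Ccl22, Mafa and Tnfsf15, and level with control pre-plasmablasts (blue) for Cxcr4.

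Nearly the whole protein folding machinery of the ER was lower without Blimp1. Of 33 unfolded protein response genes and chaperones tested, 32 were lower (97.0%, beside 16.1% of all genes) and 0 higher. Their median change was -1.67 beside 0.12 over all genes. With the series as a block all 33 were lower, beside 24.9% of all genes. Txndc5, a disulfide isomerase, went from 1335 and 1272 to 77.97 and 105 RPKM (-3.83 ± 0.25, adjusted p = 0.000109). Prdx4, the peroxiredoxin of the ER, went from 293 and 332 to 45.98 and 62.2 RPKM (-2.52 ± 0.19). Sdf2l1, a chaperone cofactor, went from 560.5 and 646 to 102 and 123 RPKM (-2.42 ± 0.16), and Txndc11, another thioredoxin domain protein, from 139 and 159.7 to 26.8 and 32.9 RPKM (-2.29 ± 0.16). Adjusted p-values of these 3 genes lay between 0.000109 and 0.000167. The 4 genes were named for the largest changes in the list, so the lack of overlap between their groups is no separate support. Their deficient levels were nearer to activated B cells than to controls. Activated B cells had 51.97 and 88.7 RPKM of Txndc5 and 70.7 and 87.2 RPKM of Sdf2l1.

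The steps before and after folding showed the same direction, and their counts stand beside 16.1% lower and 24.4% higher of all genes. In ER entry, 19 of 23 genes of the signal recognition particle, translocon and signal peptidase were lower and 0 higher (median -1.38). Ssr2, a translocon subunit, went from 919 and 863 to 187 and 191 RPKM (-2.23 ± 0.09). Sec61a1, the channel itself, went from 497 and 477 to 134 and 127 RPKM (-1.89 ± 0.09), and Sec11c, a signal peptidase subunit, from 1180.0 and 1368 to 336 and 388 RPKM (-1.81 ± 0.17). In N-glycosylation 23 of 32 genes were lower and 0 higher (median -0.97), among them the oligosaccharyltransferase subunits Rpn1, from 503 and 447 to 95.8 and 91.1 RPKM (-2.33 ± 0.14), and Ddost, from 579 and 545 to 118 and 114 RPKM (-2.27 ± 0.09). In ER-associated degradation, which disposes of misfolded proteins, 15 of 17 genes were lower and 0 higher (median -1.60). Derl3, a derlin that helps export misfolded proteins, was at 489.9 and 530.5 RPKM in control, 93.9 and 103 RPKM in deficient and 19.4 and 26.2 RPKM in activated B cells. It changed by -2.36 ± 0.14 against control and stayed above activated B cells by 2.07 ± 0.14 (adjusted p = 0.000509). Edem2, a mannosidase that marks misfolded glycoproteins, went from 281 and 250.1 to 53.5 and 57.8 RPKM (-2.23 ± 0.11). Of 35 genes for coats and vesicle transport, 29 were lower and 0 higher (median -0.99). Sec24d, a cargo subunit of the COPII coat, went from 82.2 and 77.1 to 12.02 and 11.04 RPKM (-2.69 ± 0.12), and Lman1, a cargo receptor, from 192 and 175 to 30.9 and 32.2 RPKM (-2.51 ± 0.10). The adjusted p-values of these 9 genes ran from 4.03e-05 to 0.00035.

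Promoters of the folding genes are known to carry the ER stress response element, which binds ATF6 and Xbp1. The element was searched as CCAAT and CCACG with 9 bases between them, on both strands of RefSeq promoters (build GRCm38.p6), taken as 250 bases before to 50 bases after each gene start. Of the 33 folding genes tested 28 had a promoter in the table, and 8 of them (28.6%) held the element, against 37 of 27025 genes (0.137%) in the whole table. The whole table also holds genes that were not tested here. Since folding genes are known to carry the element, the difference between these shares does not bear on Blimp1. The promoter of Hsp90b1 held 2 sites. These 9 sites and 1 in each of 2 degradation genes are shown to let the shared letters be read. All 10 genes were lower without Blimp1, but so were 32 of the 33 folding and 15 of the 17 degradation genes tested, with or without the element. The capitals mark the fixed ends, each site is written along the strand of the match, and the genes other than Derl3 were chosen after their values were seen.
Hspa5 (chr2:34772025-34772043, gene on the plus strand, match on its own strand, 46 bases before the start): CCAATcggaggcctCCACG
Hsp90b1 (chr10:86705638-86705656, gene on the minus strand, match on its own strand, 193 bases before the start): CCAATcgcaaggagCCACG
Hsp90b1 (chr10:86705533-86705551, gene on the minus strand, match on the opposite strand, 88 bases before the start): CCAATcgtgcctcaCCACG
Dnajc3 (chr14:118937827-118937845, gene on the plus strand, match on its own strand, 86 bases before the start): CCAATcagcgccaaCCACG
Pdia6 (chr12:17266491-17266509, gene on the plus strand, match on its own strand, 79 bases before the start): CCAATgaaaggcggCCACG
Calr (chr8:84847075-84847093, gene on the minus strand, match on the opposite strand, 143 bases before the start): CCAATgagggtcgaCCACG
Canx (chr11:50325800-50325818, gene on the minus strand, match on its own strand, 126 bases before the start): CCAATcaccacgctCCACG
Ero1lb (chr13:12565682-12565700, gene on the plus strand, match on the opposite strand, 182 bases before the start): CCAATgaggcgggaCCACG
Creld2 (chr15:88819520-88819538, gene on the plus strand, match on the opposite strand, 107 bases before the start): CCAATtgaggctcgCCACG
Syvn1 (chr19:6046532-6046550, gene on the plus strand, match on its own strand, 25 bases before the start): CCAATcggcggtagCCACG
Derl3 (chr10:75893242-75893260, gene on the plus strand, match on the opposite strand, 137 bases before the start): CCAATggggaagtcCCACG
No inner stretch occurs in more than 1 of these 11 sites. Of the 10 genes Canx had the smallest change (-0.49 ± 0.15, adjusted p = 0.0396). Derl3 had the largest change of the named genes that held the element. In its whole promoter, written along the gene, the complete element is in capitals and reads from CGTGG, since the match is on the opposite strand.
Derl3 promoter (chr10:75893148-75893447, plus strand): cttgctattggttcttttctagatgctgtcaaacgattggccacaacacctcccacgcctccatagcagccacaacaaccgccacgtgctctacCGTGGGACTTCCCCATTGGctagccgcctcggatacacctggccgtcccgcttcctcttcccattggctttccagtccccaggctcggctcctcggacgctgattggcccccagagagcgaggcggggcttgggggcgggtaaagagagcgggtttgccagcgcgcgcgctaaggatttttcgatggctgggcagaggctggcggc
A match describes the letters and not binding.

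Genes of amino acid supply fell with the secretory genes. Of 26 targets of ATF4, the factor that answers amino acid shortage, 23 were lower (88.5%, beside 16.1% of all genes) and 0 higher (median -1.09). Chac1, a glutathione-degrading enzyme, went from 129 and 83.1 to 8.25 and 6.91 RPKM (-3.61 ± 0.25), and Pycr1, an enzyme of proline synthesis, from 24.4 and 21.6 to 2.73 and 2.47 RPKM (-2.73 ± 0.12). Atf5, a stress-induced factor, went from 279 and 286 to 48.3 and 64.1 RPKM (-2.32 ± 0.17). Slc7a5 and Slc3a2, the 2 chains of a carrier for large neutral amino acids, went from 283 and 264 to 62.1 and 61.1 RPKM (-2.13 ± 0.09) and from 328 and 312 to 75.2 and 77.3 RPKM (-2.06 ± 0.08). Against activated B cells the deficient cells differed by -0.26 ± 0.09 and 0.12 ± 0.08 on the log2 scale. Their list of carriers and regulators of the growth kinase mTORC1 was mixed, with 11 of 28 genes lower (39.3%) and 6 higher (21.4%, near the 24.4% of all genes). With the series as a block 40.4% of all genes were higher. Of 30 autophagy and lysosome genes 16 were lower and 4 higher (7 higher with the block, and 10 lower without the second control library), with the protease Ctsl at 37.01 and 22.6 RPKM in control and 5.25 and 3.86 RPKM in deficient cells (-2.44 ± 0.35) and the protease Ctsc moving the other way, at 54.2 and 52.3 RPKM in control and 145 and 125 RPKM in deficient cells (1.32 ± 0.10). Adjusted p-values of these 7 genes lay between 4.03e-05 and 0.00211.

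Among the B cell transcription factors 13 of 26 were higher (50.0%) and 3 lower (11.5%), beside 24.4% and 16.1% of all genes. With the series as a block 15 were higher and 6 lower, beside 40.4% and 24.9% of all genes. Spib, an ETS factor of B cells, was at 14.9 and 30.2 RPKM in control and 499.8 and 524 RPKM in deficient cells (4.52 ± 0.40, adjusted p = 0.000306), near the 546 and 569 RPKM in activated B cells. Pax5, the factor that keeps B cell identity, was at 13.5 and 25.6 RPKM in control and 118 and 175 RPKM in deficient cells (2.88 ± 0.48, adjusted p = 0.00393). Id3, an inhibitor of E proteins, was at 8.1 and 4.62 RPKM in control and 58.8 and 52.4 RPKM in deficient cells (2.98 ± 0.27, adjusted p = 0.000332), and Klf2, a factor of resting lymphocytes, at 8.79 and 22.3 RPKM in control and 191 and 326 RPKM in deficient cells (4.05 ± 0.59, adjusted p = 0.00223). In Spib, Pax5 and Klf2 the second control library held more than the first, and both lay below both deficient libraries. Sfpi1, which encodes the ETS factor PU.1, rose little, from 100.2 and 95.2 to 120.0 and 137 RPKM (0.39 ± 0.11, adjusted p = 0.0346). It was not called after scaling by the median of ratios (adjusted p = 0.135). Its call also ended without either control library (0.42 and 0.35), the second deficient library (0.29) or either library of activated B cells (0.39). Those fits had no block, and with the block Sfpi1 was called (adjusted p = 0.00602).

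Not every gene moved back towards its level in activated B cells. Bach2, a repressor that holds back plasma cell formation, was at 22.1 and 21.7 RPKM in activated B cells but at 4.17 and 4.59 RPKM in control and 2.95 and 3.86 RPKM in deficient cells. The change of -0.30 ± 0.16 was not called (adjusted p = 0.182). The blocked fit did call it (adjusted p = 0.0412), towards a lower level without Blimp1. Bcl6, the master factor of germinal centres, was at 5.64 and 7.36 RPKM in control and 1.73 and 2.41 RPKM in deficient cells (-1.29 ± 0.17, adjusted p = 0.00166), below the 7.32 and 8.99 RPKM of activated B cells. Cxcr4, the receptor that guides plasma cells to bone marrow, was at 215 and 153 RPKM in control and 223 and 147 RPKM in deficient cells, against 32.7 and 25.04 RPKM in activated B cells. Its difference was -0.00 ± 0.31 with a 95% interval of -0.74 to 0.74 (adjusted p = 0.997). That interval ignores the pairing of the libraries, so it also holds the difference between the library series. The blocked fit, which takes that difference out, gave Cxcr4 an SE of 0.07 and did not call it either. Cdkn2a, a cell cycle inhibitor locus, was at 188 and 177 RPKM in control, 137 and 144 RPKM in deficient and 18.8 and 22.1 RPKM in activated B cells. It fell slightly without Blimp1 (-0.38 ± 0.10, adjusted p = 0.0251) and remained 2.73 ± 0.10 above activated B cells (adjusted p = 9.27e-05). The call of the fall was lost when any of the 4 pre-plasmablast libraries was left out (changes from -0.42 to -0.33). Those fits had no block, and with the block Cdkn2a was called (adjusted p = 0.00271).

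Genes of antigen receptor signalling and antigen presentation are set beside the 24.4% higher and 16.1% lower of all genes, or 40.4% and 24.9% with the series as a block. Apart from Cd22, the gene of the gate, 20 of 33 genes in the receptor list were higher and 4 lower (median 0.73), and 27 were higher with the series as a block. Siglecg, an inhibitory lectin, rose from 12.4 and 13.5 to 85.5 and 83.9 RPKM (2.62 ± 0.12, adjusted p = 4.07e-05), and Cd72, an inhibitory coreceptor, from 7.3 and 16.6 to 53.7 and 70.4 RPKM (2.37 ± 0.52, adjusted p = 0.0124). The signalling chain Cd79a was high in all, at 819 and 1039.7 RPKM in control and 1157 and 1405 RPKM in deficient cells, and its 0.47 ± 0.18 was called with the block (adjusted p = 0.000132) and not without it (adjusted p = 0.0887). Of 22 genes of MHC class II and costimulation, 11 were higher and 1 lower (median 0.79), with 14 and 3 in the blocked fit. Ciita, the activator of MHC class II genes, rose from 17.3 and 16.8 to 78.9 and 71.4 RPKM (2.08 ± 0.26, adjusted p = 0.00114) and H2-Oa, a chain of a peptide-loading regulator, from 5.44 and 7.18 to 61.7 and 51.1 RPKM (2.98 ± 0.23, adjusted p = 0.000194). Cd86, a costimulatory ligand for T cells, rose from 2.53 and 4.61 to 16.3 and 24.3 RPKM (2.23 ± 0.46, adjusted p = 0.00947). The calls of Cd72 and Cd86 ended in the fits without the first control library (1.82 and 1.90) or the second deficient one (2.18 and 1.96). Those fits had no block, and with the block both genes were called (adjusted p = 0.000112 and 1.87e-05). Against activated B cells the deficient cells differed by -0.06 ± 0.12 for Siglecg, -0.84 ± 0.26 for Ciita and -0.46 ± 0.23 for H2-Oa, none of which was called.

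Of 19 genes in the toll-like receptor list 11 (57.9%) were higher and 3 (15.8%) lower, beside 24.4% and 16.1% of all genes, and 7 were higher without the first control or the second deficient library. Without either control or the first deficient library 1 was lower. Leaving out the first control or the second deficient library also lowered the number of calls over all genes. It ended the call of Tlr1 as well (2.03 and 2.16), in fits without a block. With the block Tlr1 was called (adjusted p = 9.33e-07). Tlr9, the receptor for unmethylated DNA, was at 2.65 and 5.16 RPKM in control and 132 and 133 RPKM in deficient cells (4.82 ± 0.31, adjusted p = 0.000102). Tlr1 rose from 0.948 and 2.76 to 11.1 and 18.6 RPKM (2.51 ± 0.52, adjusted p = 0.0097) and Ly86, the partner of the LPS-related receptor Cd180, from 57.3 and 51.5 to 324 and 291 RPKM (2.48 ± 0.12, adjusted p = 4.91e-05). Mpeg1, a pore-forming protein of phagocytes, was at 3.09 and 5.48 RPKM in control, 124 and 154 RPKM in deficient and 38.1 and 51.8 RPKM in activated B cells (4.75 ± 0.33 against control, adjusted p = 0.000133). In the interferon list 16 of 30 genes were higher and 6 lower (median 0.67), or 3 lower without the first control or the second deficient library. Gbp2, a guanylate-binding protein, rose from 6.73 and 14.6 to 132 and 149.9 RPKM (3.69 ± 0.53, adjusted p = 0.0021), and Ifi30, a lysosomal thiol reductase of antigen processing, from 70.4 and 95.4 to 424 and 478 RPKM (2.44 ± 0.17, adjusted p = 0.00013). Isg20, an interferon-induced exonuclease, went the other way, from 237 and 265 to 29.1 and 36.5 RPKM (-2.91 ± 0.17, adjusted p = 8.01e-05), back to the 25.2 and 34.8 RPKM of activated B cells.

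Blimp1 is known to bind sequences with a GAAAG core. Searched as AGNGAAAG on both strands, the core was found in 2836 of 32851 RefSeq promoters (8.63%), so a match is common. Tlr9 and Mpeg1 had the largest rises among the named genes with a match, and their promoters are shown 5′ to 3′ with the match in capitals (RefSeq, build GRCm38.p6).
Tlr9 promoter (chr9:106222348-106222647, plus strand): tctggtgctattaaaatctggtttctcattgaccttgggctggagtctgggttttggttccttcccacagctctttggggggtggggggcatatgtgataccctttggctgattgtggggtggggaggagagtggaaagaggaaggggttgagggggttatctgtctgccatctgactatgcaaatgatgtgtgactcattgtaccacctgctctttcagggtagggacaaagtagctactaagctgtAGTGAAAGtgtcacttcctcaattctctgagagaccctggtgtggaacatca
Mpeg1 promoter (chr19:12460520-12460819, plus strand): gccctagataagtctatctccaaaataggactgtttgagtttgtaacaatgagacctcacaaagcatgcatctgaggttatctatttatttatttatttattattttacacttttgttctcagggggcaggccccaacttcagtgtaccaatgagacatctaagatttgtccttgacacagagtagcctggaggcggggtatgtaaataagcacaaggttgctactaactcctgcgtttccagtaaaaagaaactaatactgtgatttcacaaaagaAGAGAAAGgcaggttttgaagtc
In Tlr9 the match begins 2 bases before the start of the gene, and in Mpeg1 it begins at base 28 after it. Binding was not measured in these libraries.

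Among the genes of class switching Batf, a factor of the AP-1 family, rose from 82.9 and 97.6 to 210.2 and 232 RPKM (1.29 ± 0.15, adjusted p = 0.000914). In that list 8 of 21 genes were higher (38.1%) and 2 lower (9.52%), beside 24.4% and 16.1% of all genes. With the block 10 were higher and 4 lower, beside 40.4% and 24.9% of all genes.

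Several genes had their highest levels of the 8 libraries in deficient pre-plasmablasts. Besides Ccl22, whose activated B cells stood at 106 and 153 RPKM, Mafa, a basic leucine zipper factor known from the pancreatic beta cell, was at 0.514 and 1.23 RPKM in control, 9.8 and 17.7 RPKM in activated B and 52.7 and 60.6 RPKM in deficient cells. It rose by 4.97 ± 0.41 over control (adjusted p = 0.000229) and by 2.02 ± 0.41 over activated B cells (adjusted p = 0.0176). Tnfsf15, a ligand of the TNF family, was at 0.403 and 0.525 RPKM in control, 0.945 and 1.42 RPKM in activated B and 21.6 and 21.7 RPKM in deficient cells, 3.38 ± 0.13 above activated B cells (adjusted p = 9.27e-05). Cd300lf, an inhibitory receptor of the CD300 family, stood at 6.63 and 5.18 RPKM in control, 10.8 and 10.9 RPKM in activated B and 96.2 and 89.9 RPKM in deficient cells, 2.99 ± 0.14 above activated B cells (adjusted p = 0.00014). In all 3 genes both deficient libraries exceeded every other library, but they are described here for that reason, so this is no separate support. The ligands Tnfsf9 and Cd70, which act on T cells, followed with rises of 2.78 ± 0.19 and 2.56 ± 0.35 over control (adjusted p = 0.000131 and 0.00169). Tnfsf9 was at 3.4 and 3.94 RPKM in control and 30.6 and 31.5 RPKM in deficient cells, and Cd70 at 3.29 and 1.11 RPKM in control and 19.3 and 14.6 RPKM in deficient cells. Of 19 ligands and receptors of the TNF family tested, 14 were higher and 4 lower (median 0.83), and 2 were lower without the second control library or either deficient library. Of the 18 inhibitory and Fc receptors 12 were higher (66.7%) and 5 lower (27.8%). Both lists stand beside 24.4% higher and 16.1% lower of all genes. Fcrl5 rose from 10.8 and 15.98 to 94.9 and 121 RPKM (2.93 ± 0.31), whereas Ctla4 and Lag3, inhibitory receptors best known from T cells, fell from 60.7 and 56.5 to 5.19 and 5.25 RPKM (-3.26 ± 0.15) and from 77.5 and 124 to 13.8 and 15.4 RPKM (-2.67 ± 0.29). Their adjusted p-values were 0.000665, 4.91e-05 and 0.000663.

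**Figure D3:**
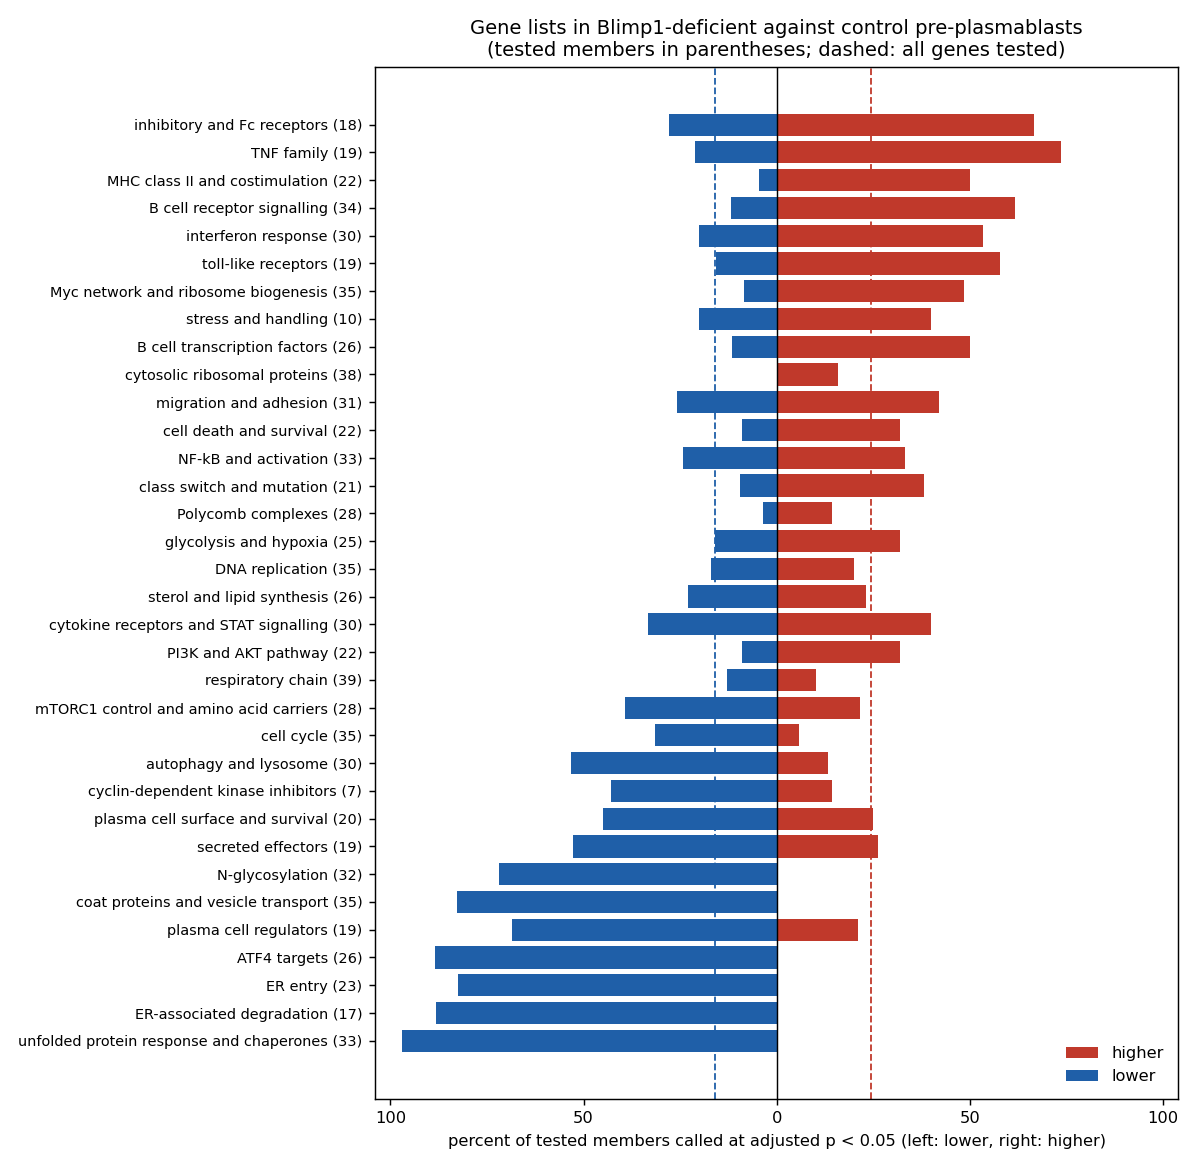
Share of the tested members of each gene list called higher (right, red) or lower (left, blue) in Blimp1-deficient against control pre-plasmablasts, ordered by the list's median change. The dashed lines mark 24.4% higher and 16.1% lower over all genes tested, and the 33 unfolded protein response genes and chaperones stand at the lower end with 32 lower.

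Receptors that place and keep cells in lymphoid tissue were divided. Ccr7, which guides B cells to the T cell zone, rose from 26.8 and 24.4 to 134 and 108 RPKM (2.19 ± 0.20, adjusted p = 0.00032). Itgb7, an integrin chain of gut homing, was at 4.31 and 5.52 RPKM in control, 45.8 and 52.9 RPKM in deficient and 29.4 and 27.1 RPKM in activated B cells (3.09 ± 0.15 against control, adjusted p = 5.34e-05). S1pr1, the receptor for exit into blood, rose by 0.95 ± 0.12 from 20.04 and 24.2 to 42.8 and 43.9 RPKM (adjusted p = 0.00146). The whole list had 13 of 31 genes higher (41.9%) and 8 lower (25.8%), beside 24.4% and 16.1% of all genes.

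Survival genes of the Bcl2 family moved in opposite directions. Bcl2l1, which encodes the survival protein Bcl-xL, was at 137 and 131 RPKM in control and 13.7 and 16.5 RPKM in deficient cells (-3.07 ± 0.12, adjusted p = 4.03e-05). Bcl2, its relative, was at 6.94 and 7.81 RPKM in control and 29.6 and 36.1 RPKM in deficient cells (2.01 ± 0.16, adjusted p = 0.000222). Bcl2l1 was thus near its level in activated B cells, 12.7 and 15.3 RPKM, while Bcl2 exceeded them by 0.62 ± 0.16 (adjusted p = 0.0444). Among receptors for cytokines Il10ra rose from 5.03 and 5.76 to 78.7 and 72.6 RPKM (3.58 ± 0.19, adjusted p = 6.22e-05), and Il6st, the shared signalling chain of the IL-6 family, fell from 40.2 and 38.6 to 5.18 and 5.72 RPKM (-2.65 ± 0.09, adjusted p = 4.03e-05). Pim1, a kinase induced by cytokines, fell from 758 and 748 to 274 and 296 RPKM (-1.40 ± 0.09, adjusted p = 0.000113) and stayed above the 141 and 156 RPKM of activated B cells. Tnfrsf17, which encodes the survival receptor BCMA, was near the limit of 1 RPKM in both groups, at 1.36 and 0.867 RPKM in control and 0.153 and 0 RPKM in deficient cells. The death and survival list had 7 of 22 genes higher (31.8%) and 2 lower (9.09%), with 13 and 5 in the blocked fit and 1 lower without the first control library. In the list of plasma cell surface and survival genes 9 of 20 were lower (45.0%), Sdc1 of the gate among them, and 5 higher (25.0%). The shares over all genes were 24.4% higher and 16.1% lower, or 40.4% and 24.9% with the block. Without the block the higher share of the second list was thus near that of all genes. Of 30 cytokine receptor and STAT genes 12 were higher and 10 lower (6 lower without the first deficient library).

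Cell cycle genes changed by small amounts. The lists that follow stand beside 24.4% higher and 16.1% lower of all genes, or 40.4% and 24.9% with the block. After scaling by the median of ratios these shares were 17.9% and 19.4%. With any 1 library left out of the fit, fewer genes were called in both directions over all genes. Of 35 cyclins, kinases and mitosis genes 11 were lower (31.4%) and 2 higher (5.71%), or 17 and 6 with the block, with a median of -0.21. Leaving out the second control library or either deficient library gave 6 or 7 lower. Cdc20, an activator of anaphase, was at 76.1 and 74.2 RPKM in control and 43.4 and 37.7 RPKM in deficient cells (-0.88 ± 0.09, adjusted p = 0.000671), and Ccnd3, a G1 cyclin, moved up from 18.5 and 16.02 to 38.7 and 38.8 RPKM (1.12 ± 0.10, adjusted p = 0.000277). The 35 DNA replication genes had 7 higher (20.0%) and 6 lower (17.1%), near the 24.4% and 16.1% of all genes (11 and 10 with the block), and 3 higher without the second control or the first deficient library. Myc, the growth regulator, rose from 76.7 and 71.7 to 119.7 and 125 RPKM (0.71 ± 0.14, adjusted p = 0.00819). In its list with ribosome biogenesis factors 17 of 35 genes were higher and 3 lower. That count was 26 higher with the block and 11 after scaling by the median of ratios, and fell to 9 without the second control library and 8 without the first deficient one. Cytosolic ribosomal proteins had 6 of 38 genes higher (15.8%, under the 24.4% of all genes) and 0 lower, 28 higher with the block, 3 after scaling and 2 without the first control or the first deficient library, and reads of their many near-identical pseudogenes make single values uncertain. Among cell cycle inhibitors 1 of 7 was higher, Cdkn1a, from 82.8 and 87.97 to 122 and 159 RPKM (0.70 ± 0.13, adjusted p = 0.00659), and 3 were lower (5 with the block, 1 without the first deficient library).

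Of 28 Polycomb genes 4 were higher (14.3%) and 1 lower (3.57%), both shares below the 24.4% and 16.1% of all genes. The counts were 13 and 4 with the block, where all genes stood at 40.4% and 24.9%. After scaling they were 2 and 2, where all genes stood at 17.9% and 19.4%. Leaving out either control library, the second deficient library or either library of activated B cells gave 2 higher. Ezh2, the methyltransferase of the PRC2 complex, was at 81.9 and 114 RPKM in control and 118 and 125 RPKM in deficient cells, and its 0.33 ± 0.23 was called with the block (adjusted p = 0.0204) and not without it (adjusted p = 0.311). Ezh1, its relative, rose from 9.4 and 10.4 to 15.6 and 17.4 RPKM (0.68 ± 0.11, adjusted p = 0.0033).

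Markers of other cells moved with the comparison in part. Their counts stand beside 24.4% higher and 16.1% lower of all genes. The 7 T cell markers in the files, of 16 listed, summed to 76.6 and 83.03 RPKM in control and 314 and 269.8 RPKM in deficient cells, and to 217 and 165 RPKM in activated B cells. Of the 6 tested 3 were higher and 2 lower, and Cd5 was under 1 RPKM in all 8 libraries. Cd2 alone supplied 60.5 and 64.1 RPKM of the control and 295 and 249 RPKM of the deficient sums. Cd8b1 was at 0.15 and 0.207 RPKM in control, 0.0382 and 0.021 RPKM in activated B and 4.99 and 5.09 RPKM in deficient cells. It was 2.55 ± 0.10 higher in deficient than in activated B cells (adjusted p = 9.27e-05), whereas Lck and Lat were not called against them (adjusted p = 0.0864 and 0.702). In deficient cells Lat was at 0.552 and 0.223 RPKM and Cd5 at 0.466 and 0.669 RPKM. The 5 myeloid markers, of 18 listed and with 4 higher and 0 lower, summed to 42.6 and 47.6 RPKM in control and 80.04 and 91.2 RPKM in deficient cells, with Itgam at 0.508 and 0.675 RPKM in control and 9.65 and 14.1 RPKM in deficient cells. In activated B cells Itgam was at 11.01 and 10.2 RPKM. Emr1, of the same list, was at 0.0131 and 0.108 RPKM in control, 1.34 and 1.8 RPKM in activated B and 3.54 and 4.68 RPKM in deficient cells. Deficient cells exceeded activated B cells by 0.99 ± 0.15 for Emr1 and 1.51 ± 0.09 for Cd68 (adjusted p = 0.00731 and 0.000333). Itgam and Tyrobp were not called against activated B cells (adjusted p = 0.724 and 0.532). The 7 natural killer and dendritic cell markers, of 15 listed, summed to 29.4 and 27.96 RPKM in control and 40.8 and 33.5 RPKM in deficient cells, mostly Flt3, with 1 of 4 tested higher and 1 lower and with Xcr1, Zbtb46 and Itgax under 1 RPKM in all libraries. The 3 erythroid and megakaryocyte markers, of 15 listed, summed to 3.45 and 4.21 RPKM in control and 14.97 and 13.5 RPKM in deficient cells, mostly Hbb-b1, whose reads can come from a near-identical copy. The other markers listed were not analysed here. Their part in the rise of the innate and TNF family genes was not tested. Of 10 heat shock genes that respond to handling 4 were higher (40.0%) and 2 lower (20.0%), beside 24.4% and 16.1% of all genes. With the block 7 were higher, beside 40.4% of all genes, and none was higher after scaling, beside 17.9% of all genes.

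The EZH2 inhibitor gave a comparison that shares no library with the deletion. It addresses how far genes held down in the presence of Blimp1 also rise when EZH2 is blocked. In 9285 genes tested in both experiments, GSK343 raised 12.2% and lowered 5.87%, close to the 12.7% and 5.86% of all 9479 genes tested with it. Of the 2072 genes higher without Blimp1, 454 were also higher with GSK343, which is 21.9% of the first list and 40.1% of the 1133 genes raised by GSK343, and 79 (3.81%) were lower with it. Of the 510 that were higher by 2-fold or more, 199 (39.0%, and 17.6% of the GSK343 list) were higher with GSK343 and 22 (4.31%) lower. Of the 1555 genes lower without Blimp1, 241 (15.5%, and 44.2% of the 545 genes lowered by GSK343) were also lower with GSK343, and 220 (14.1%) were higher. The shares of the GSK343 lists, 40.1%, 17.6% and 44.2%, are to be read beside 2072, 510 and 1555 of the 9285 genes. With 1 GSK343 library left out, the shared genes numbered 236 or 270 among the higher and 121 or 105 among the lower, for the first and the second library. The overlap was not tested against chance.

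**Figure D4:**
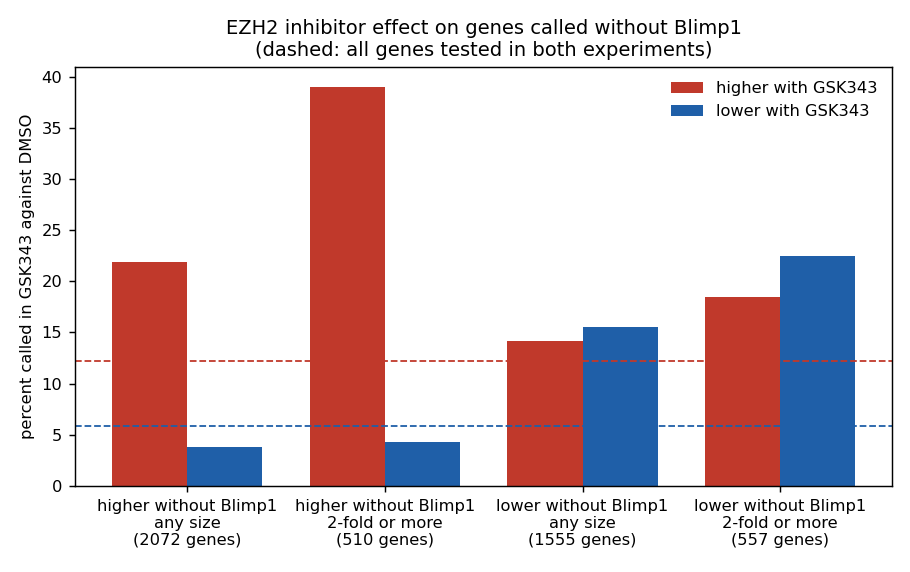
Percent of the genes called higher or lower without Blimp1 that were called higher (red) or lower (blue) with GSK343 against DMSO, with the number of genes under each pair of bars. The dashed lines mark 12.2% and 5.87% of the 9285 genes tested in both experiments, and the genes higher by 2-fold or more have the tallest red bar, at 39.0%.

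Single genes differed in their answer to the inhibitor. Itgb7 was at 1.57 and 1.55 RPKM with DMSO and 10.4 and 9.69 RPKM with GSK343, a rise of 2.11 ± 0.12 (adjusted p = 2.19e-06). Spib was at 7.02 and 7.01 RPKM with DMSO and 29.1 and 25.1 RPKM with GSK343 (1.81 ± 0.11, adjusted p = 2.7e-06), Klf2 at 7.22 and 7.02 RPKM with DMSO and 27.7 and 22.95 RPKM with GSK343 (1.69 ± 0.12, adjusted p = 5.85e-06) and Ccr7 at 5.32 and 5.95 RPKM with DMSO and 16.6 and 16.4 RPKM with GSK343 (1.404 ± 0.112, adjusted p = 1.56e-05). In these 4 genes the libraries with GSK343 lay above both with DMSO, but the calls were made on the same libraries. Tlr9 rose by 0.90 ± 0.13 (adjusted p = 0.000889), from 0.221 and 0.235 to 1.27 and 1.30 RPKM. Ccl22 rose by 0.96 ± 0.16 (adjusted p = 0.00187), from 0.932 and 1.45 to 2.86 and 3.67 RPKM. Both stayed low with GSK343. In the other experiment deficient cells held 132 and 133 RPKM of Tlr9 and 625 and 489 RPKM of Ccl22. Other genes that rose without Blimp1 were not called with GSK343. Cd22 was at 5.27 and 6.9 RPKM with DMSO and 7.27 and 5.44 RPKM with GSK343 (0.05 ± 0.16, adjusted p = 0.86), Ciita at 2.2 and 2.33 RPKM with DMSO and 2.98 and 2.05 RPKM with GSK343 (0.09 ± 0.15, adjusted p = 0.722), and Pax5 at 4.7 and 6.36 RPKM with DMSO and 4.98 and 4.33 RPKM with GSK343 (-0.20 ± 0.15, adjusted p = 0.402). Xbp1 and Txndc5, low without Blimp1, changed by -0.22 ± 0.09 and 0.11 ± 0.10 with GSK343 and were not called (adjusted p = 0.13 and 0.507).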

How the data were processed

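RNA of sorted cells was sequenced in 50-nucleotide reads. Per the submitters' processing notes, the tools named are TopHat 1.4.1, HTSeq 0.5.3 and DESeq 1.8.3 with the genome mm9, with no role or order given; a normalization for GC content is stated only by the names of the deposited tables, and its method is not given in the sources used here. The values the authors deposited are RPKM per gene, so total counts, and with them the depth, are unknown. Of 11567 entries, 126 that share 61 repeated names were left out, leaving 11441 genes; each library had between 9744 and 10077 genes at 1 RPKM or more.

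RPKM as deposited was analysed as log2(RPKM + 1) for the 10473 genes at 1 RPKM or more in 2 of 8 libraries. limma 3.58.1 in R 4.3.3 (lmFit, eBayes with trend) fitted the 4 groups together without a block and gave two-sided p-values. Genes with an adjusted p below 0.05 were called. The 4 inhibitor libraries were fitted separately in the same way over 9479 genes. Same-numbered libraries deviated together from their group means (correlation over 10473 genes between 0.666 and 0.781 in all 6 pairs of groups), so the number series were taken as pairing them, and a fit with the series as a block is an alternative. Standard errors, intervals and p-values are from the fit without the block unless stated, so they include differences between the series. The fits with a library left out also had no block. Others change the pseudocount, the filter, the scaling, the groups fitted and the libraries kept. The scripts were tested on simulated data.

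The genes named are the 15 largest rises and 15 largest falls at a mean of 10 RPKM or more in the higher group, a fixed set of regulators and markers, and the 4 called members with the largest change in each of 39 lists. Members and lists were chosen with earlier results of these data known. The tables of plasma cells were not used here. Some genes that the rule names are not reported here.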

Additional observations from a re-analysis of the deposited data

How the results depend on the processing

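The 2553 higher and 1681 lower genes became 732 and 594 when a change of 2-fold or more was also required, and the 454 and 241 genes shared with GSK343 became 199 and 125, by construction of the stricter rule. With the library series as a replicate block, 4226 genes were higher and 2603 lower, and all 4234 genes called without the block stayed called. Both series held a library of each group, so the block could not alter a change or its direction, only its SE. Among the named genes the block added Bach2, Cd79a and Ezh2 and changed no other call. Leaving out 1 library at a time gave 1735 to 2333 higher and 1216 to 1560 lower genes, and 236 to 436 and 105 to 244 genes shared with GSK343. The fit of only the 2 groups compared gave 1892 and 1318. Of 171 named genes, 167 were called, and 136 of these were called in the same direction in every one of the 16 alternatives of the fit that tested them. Cxcr4, at -0.00 and not called, turned to 0.24 without the first control library and to 0.30 without the second deficient library. Over the libraries left out it ranged from -0.30 to 0.30. These fits had no block, and Cxcr4 was higher in the first series in every group. Within the series its changes were 0.05 and -0.06. The cause of the turn was not tested. Scaling by the median of ratios ended the calls of Bag3, Dkc1, Hif1a, Hspd1, Phc1, Rpl18 and Sfpi1, and otherwise kept the direction of every named gene. The depth is unknown, so no counting error could be given, and 2 libraries a group limit the precision.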

Other observations

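Some genes among the largest changes belong to none of the groups described. Fkbp11, a prolyl isomerase of the ER, was at 167 and 109 RPKM in control and 4.43 and 3.75 RPKM in deficient cells (-4.74 ± 0.29, adjusted p by limma = 8.09e-05). Ckap4, a membrane protein that shapes ER sheets, was at 212 and 235 RPKM in control and 16.4 and 22.02 RPKM in deficient cells (-3.49 ± 0.21, adjusted p by limma = 7.8e-05). Prg2, an eosinophil granule protein, was at 25.03 and 27.5 RPKM in control and 0.445 and 0.824 RPKM in deficient cells, with 16.1 and 16.3 RPKM in plasmablasts. Tmem52, a membrane protein, was at 49.99 and 50.4 RPKM in control and 2.47 and 3.95 RPKM in deficient cells, and it also fell with GSK343, from 26.5 and 17.2 to 2.16 and 3.08 RPKM (-2.64 ± 0.19, adjusted p by limma = 7.58e-06). Selm, a selenoprotein of the ER, was at 62.5 and 58.4 RPKM in control and 1.35 and 2.38 RPKM in deficient cells and rose with GSK343, from 42.8 and 37.8 to 77.1 and 86.8 RPKM (1.01 ± 0.09, adjusted p by limma = 4.85e-05).

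Some immediate early genes were lower without Blimp1. Dusp1, a phosphatase of MAP kinases, was at 42.7 and 43.3 RPKM in control and 3.94 and 5.005 RPKM in deficient cells (-3.01 ± 0.14, adjusted p by limma = 4.81e-05). Egr1 was at 141 and 72.1 RPKM in control and 21.5 and 14.4 RPKM in deficient cells (-2.45 ± 0.70, adjusted p by limma = 0.0308), and Ier2 at 220.2 and 120.0 RPKM in control and 39.8 and 30.6 RPKM in deficient cells (-2.19 ± 0.46, adjusted p by limma = 0.0105). Both calls ended without the first control library (adjusted p = 0.139 and 0.0556) or the second deficient one (0.131 and 0.0597), and that of Egr1 also without the first deficient library (0.079), all by limma. For Egr1 and Ier2 the first series was higher in all 4 groups, with 199 and 49.7 RPKM of Egr1 in activated B cells. The list they belong to, NF-kB subunits and early targets, had 11 of 33 genes higher and 8 lower; over the libraries left out these counts ranged down to 7 and 5. Metabolic and kinase lists can be set beside the background of 24.4% higher and 16.1% lower. That background was 40.4% and 24.9% with the block and 17.9% and 19.4% after scaling. Glycolysis and hypoxia genes had 8 of 25 higher and 4 lower (4 and 4 after scaling), and sterol and lipid genes 6 and 6 of 26. The respiratory chain had 4 and 5 of 39 (6 and 14 with the block, 1 and 8 after scaling). The PI3K and AKT pathway had 7 and 2 of 22 (8 and 8 with the block, 5 and 6 after scaling). Over the libraries left out, glycolysis and hypoxia genes ranged from 4 to 7 higher, sterol and lipid genes from 3 to 5 lower, the respiratory chain from 0 to 3 higher and 3 to 5 lower, and the PI3K and AKT pathway down to 1 lower. In that pathway Pik3cg, the catalytic gamma subunit of PI3K, was at 83.5 and 72.1 RPKM in control and 3.0 and 4.31 RPKM in deficient cells (-4.09 ± 0.36, adjusted p by limma = 0.000312), while Pik3r6, a regulatory subunit for it, moved the other way, from 7.6 and 7.18 to 14.99 and 16.1 RPKM (0.98 ± 0.14, adjusted p by limma = 0.00185).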
